A study of Sus scrofa with 35 samples.

Results

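The mitochondrial ribosome (mitoribosome) builds the proteins that are encoded in mitochondrial DNA, which are core subunits of the respiratory chain and of ATP synthase. Its RNAs come from the mitochondrial genome, whereas all of its proteins are encoded in the nucleus, made in the cytosol and imported. The MRPL genes are named for the large subunit, which joins amino acids, and the MRPS genes for the small subunit, which reads the messenger RNA, although MRPS30 and MRPS18A belong to the large subunit. Some of these proteins have a counterpart in the bacterial ribosome and others are found only in mitochondria.

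The members were the non-control probes whose gene name in the scanner files starts with MRPL or MRPS followed by a digit, and each gene was represented by its brightest probe. This gave 45 genes on 61 of the 60305 probes of the array, of which 43 genes had a probe above the filter described in the processing section. MRPS9 and MRPS35, both of the small subunit, were not well above background on any array under these names. MRPL18 had the brightest probe, with a mean log2 level of 14.83 ± 0.16 (SD, n = 18) in TN, and MRPL40 the dimmest, at 5.96 ± 0.26 (SD, n = 18). Apart from MRPL40, which was well above background on 30 of 35 arrays, the measured members were well above background on all 35. A microarray level depends on the probe, so levels are not compared between genes.

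The samples were longissimus dorsi, a back muscle, of growing castrated male pigs of 3 genetic groups. Creole is a local breed of Guadeloupe, Large White a lean commercial breed, and F1 their cross. Pigs were slaughtered at thermoneutrality (TN, labelled 24 °C) or after heat stress (HS, labelled 30 °C), and the growth protocol gives the challenge as 32 °C for 5 days, so its temperature is stated here with that disagreement. There were 6 arrays in each of Creole TN, Creole HS, F1 TN, Large White TN and Large White HS, and 5 in F1 HS, each from 1 pig. Per the study methods, pigs came from blocks of littermates within a breed, and some HS pigs were slaughtered a day short of the 5 days. HS pigs were slaughtered later and from other pens than TN pigs, so temperature, pen and slaughter day cannot be told apart. The paper also reports that the challenged pigs ate less under heat than before it, so lower feed intake cannot be told apart from temperature either. The share of probes well above background ranged from 58.4% to 75.9% per array, and no spot was saturated. Before normalisation, the log2 75th percentile of intensity was 9.05 ± 0.17 (SD, n = 18) on TN and 9.24 ± 0.24 (SD, n = 17) on HS arrays. The 13 muscle fibre markers, among them actin, creatine kinase and the fast myosins, were all measured, with a mean log2 level of 17.6 to 18.1 per array.

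The first question was whether heat stress changed the expression of these genes whatever the breed. Compared with TN, 7 of the 43 genes were lower in HS and 0 were higher (limma, adjusted p under 0.05), although MRPL20 and MRPL47 turned to 0.01 when arrays were scaled to spike-in RNAs. Their names are MRPL37, MRPS25, MRPL48, MRPL2, MRPS11, MRPL47 and MRPL20. This is 16.3% of the members, against 16.0% of all 41517 probes tested, so the share of changed members was near that of the whole array. Over all probes 8.3% were lower and 7.73% higher. With 1 probe per gene named in the reference table, 18.2% of 8996 genes were called, 9.9% lower and 8.34% higher. The log2 difference was below 0 for 33 of 43 members, against 56.6% of all genes named in the reference table, and its median was -0.07 for the members and -0.02 over all probes (0.05 and 0.07 with spike-in scaling). At an unadjusted p under 0.05 there were 15 members, against 30.7% of all probes. The differences were small: 24 of 43 members moved by less than 0.1 on the log2 scale, and the range was -0.40 for MRPL37 to 0.19 for MRPS31. TN and HS arrays overlapped for all 43 genes. The share of all probes with such an overlap was not counted, so this is not read as a trait of these genes.

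**Figure D1:**
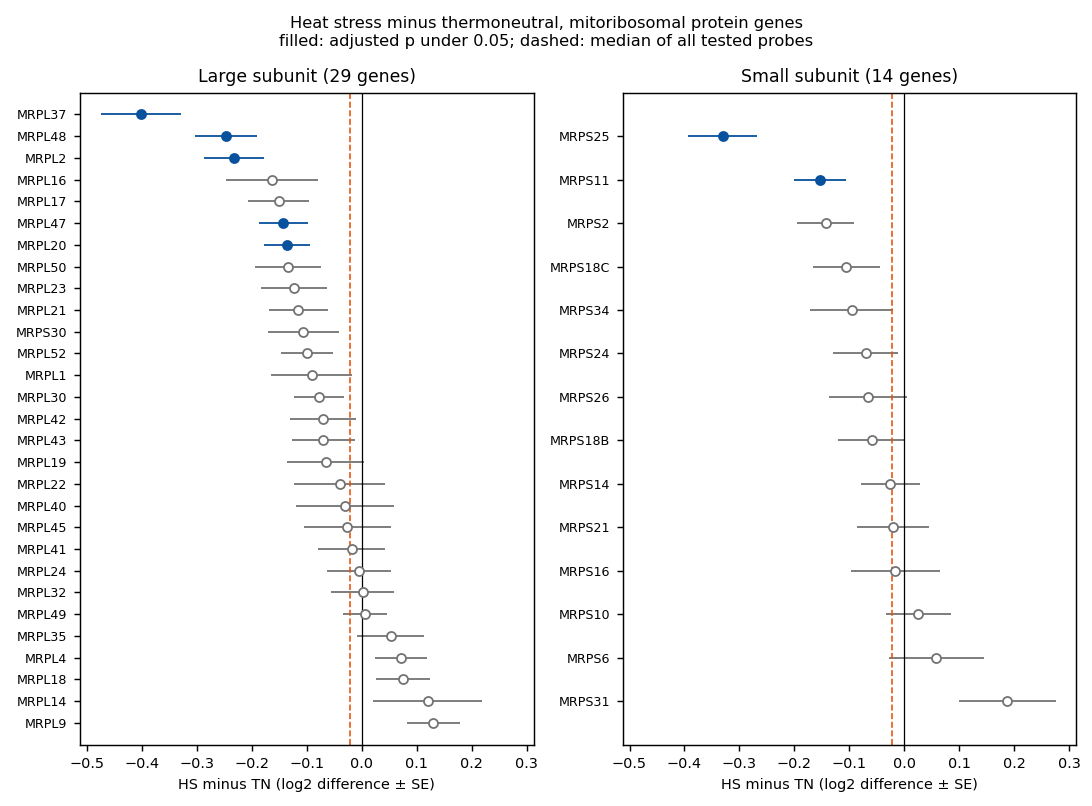
Log2 difference of HS minus TN (x axis, bars are SE) for the 29 large-subunit and 14 small-subunit genes measured on 35 arrays, ordered by size, with filled points for the 7 genes that passed the test. The filled points lie between -0.40 and -0.14, and most open points lie to the left of 0, close to the median of all probes at -0.02 (dashed).

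The genes that passed belonged to both subunits, and all were lower. In either direction 16.0% of all probes and 18.2% of named genes were called, and 8.3% and 9.9% were called lower. The difference of the subunits from these shares was not tested. In the large subunit 5 of 29 measured genes were lower, with a median over the 29 of -0.07, and in the small subunit 2 of 14, with a median of -0.06. Among genes with a bacterial counterpart 4 of 27 were lower (median -0.07), and among mitochondria-specific genes 3 of 16 (median -0.07).

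MRPL37, a mitochondria-specific protein of the large subunit, showed the largest difference. Its log2 level ranged from 10.28 to 11.07 with a median of 10.83 on the 18 TN arrays, and from 10.03 to 10.73 with a median of 10.48 on the 17 HS arrays. The groups overlapped, but 13 TN arrays lay above the highest HS array and all 17 HS arrays lay below the TN mean of their breed. The level fell by 24.3% (log2 difference -0.40, SE 0.07, limma adjusted p = 0.000504).

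MRPS25, a mitochondria-specific protein of the small subunit, ranged from 11.45 to 12.14 (median 11.79) in TN and from 11.03 to 11.84 (median 11.49) in HS. Here 8 HS arrays lay below the lowest TN array, and 16 of 17 were below the TN mean of their breed. The level fell by 20.5% (log2 difference -0.33, SE 0.06, limma adjusted p = 0.000691).

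MRPL48, a mitochondria-specific protein at the top of the large subunit, where it faces the small one, ranged from 10.69 to 11.46 (median 11.05) in TN and from 10.40 to 11.02 (median 10.78) in HS. In TN, 10 arrays lay above the highest HS array. The level fell by 15.7% (log2 difference -0.25, SE 0.06, limma adjusted p = 0.00342).

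MRPL2, the counterpart of a bacterial protein that sits by the site where peptide bonds are formed, ranged from 11.73 to 12.41 (median 11.87) in TN and from 11.44 to 12.002 (median 11.70) in HS. In HS, 10 arrays lay below the lowest TN array. The level fell by 14.9% (log2 difference -0.23, SE 0.05, limma adjusted p = 0.0042).

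The other 3 genes, all with a bacterial counterpart, moved less. MRPS11, part of the platform of the small subunit, ranged from 13.60 to 14.20 (median 13.81) in TN and from 13.41 to 13.91 (median 13.69) in HS, and fell by 10.08% (log2 difference -0.15, SE 0.05, limma adjusted p = 0.0243). MRPL47 ranged from 9.42 to 9.80 (median 9.60) in TN and from 9.25 to 9.73 (median 9.48) in HS, and fell by 9.40% (log2 difference -0.14, SE 0.04, limma adjusted p = 0.0263). MRPL20 ranged from 10.93 to 11.36 (median 11.18) in TN and from 10.85 to 11.20 (median 11.09) in HS, and fell by 9.02% (log2 difference -0.14, SE 0.04, limma adjusted p = 0.023). All 17 HS arrays were below the TN mean of their breed for MRPL20, and 15 of 17 for MRPS11 and MRPL47.

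**Figure D2:**
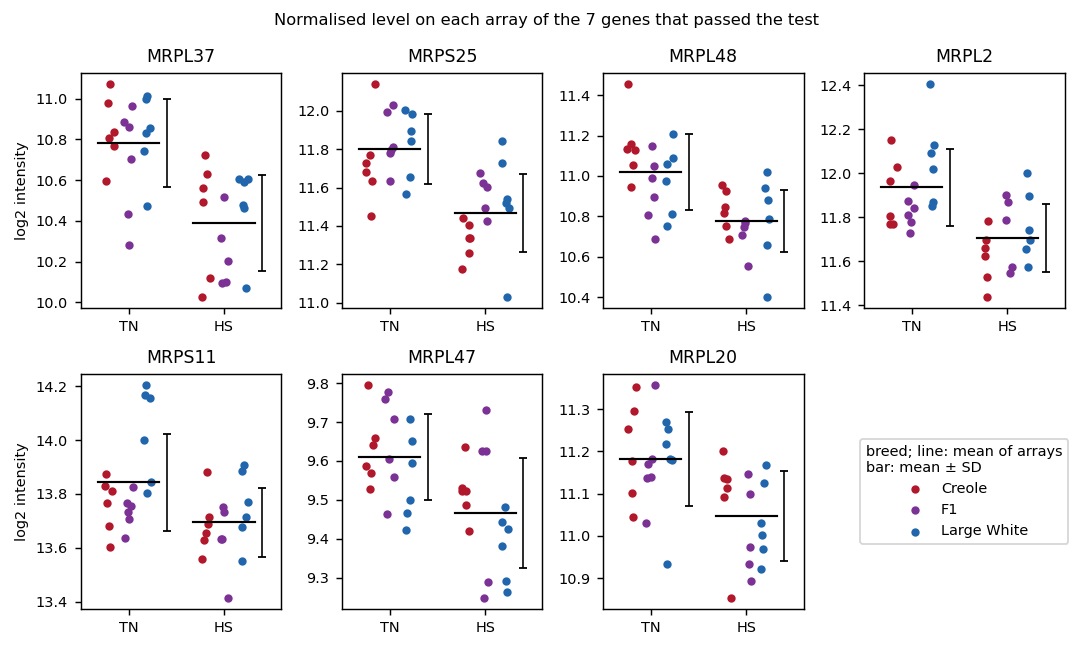
Normalised log2 intensity (y axis) of the 7 genes that passed the test on each of the 18 TN and 17 HS arrays, with breeds in colour, the group mean as a line and its SD as a bar. The HS means lie below the TN means for all 7 genes while the points of both temperatures overlap, and with spike-in scaling MRPL20 and MRPL47 turn to 0.01.

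The sequences below are those of the probes that carried these decreases, taken from the scanner files and printed 5′ to 3′. They are 60 bases long and belong to the 3 genes with the largest decreases and to MRPL20, which differed least among the 7.
MRPL37: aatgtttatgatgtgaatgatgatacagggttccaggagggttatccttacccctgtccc
MRPS25: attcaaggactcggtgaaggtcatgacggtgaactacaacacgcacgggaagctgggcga
MRPL48: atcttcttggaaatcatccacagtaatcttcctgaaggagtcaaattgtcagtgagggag
MRPL20: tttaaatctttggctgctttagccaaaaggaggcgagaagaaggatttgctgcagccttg
None of the 10 probes of members that passed the test shared a run of 20 bases, on either strand, with an array probe outside the MRPL and MRPS genes. Probes of other MRPL and MRPS genes were not searched. Such a run was found for 4 of the 58 member probes above the filter on the same strand (MRPL14, MRPL32, MRPL41 and MRPL43) and for 1 on the opposite strand (MRPL24), none of which passed the test.

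The number of members called lower changed with the scaling of the arrays and with the covariates in the fit. The 17 measured leukocyte markers had a median log2 difference of 0.74, with 8 higher in HS and 0 lower, and their mean level per array was 7.78 to 10.41 in TN and 9.16 to 10.75 in HS. No leukocyte marker measured was below background on every array. With that mean as a covariate 3 members were lower, MRPL37 (-0.26, adjusted p = 0.0316), MRPS25 (-0.22, adjusted p = 0.0368) and MRPS34, which was not called otherwise. The leukocyte mean itself moved with temperature, so a fit with this covariate cannot separate cell mix from temperature. In muscle, fewer cells of a type and less RNA per cell cannot be told apart. With array brightness as a covariate 3 were lower, MRPL37, MRPS25 and MRPL48. With arrays scaled to the spike-in RNAs only MRPL37 was lower (-0.25, adjusted p = 0.0366), MRPL20 and MRPL47 turned to 0.01, and 10 of 43 members were below 0. With median scaling 5 were lower and MRPL9 was higher, and with 75th percentile scaling 10 were lower, where the median was -0.10 for the members and -0.08 over all probes. The calls over all probes moved as well. They numbered 6654 in the main fit, 2263 with the leukocyte covariate and 2092 with the brightness covariate. Spike-in scaling gave 4649, median scaling 6653 and 75th percentile scaling 9320. Among all probes called, 48.2% were higher in HS with quantile normalisation, 86.5% with spike-in scaling and 27.2% with 75th percentile scaling.

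The arrays came on 5 slides, each scanned together, and slides 1 to 4 held 8 arrays with 4 HS arrays each. All 7 genes were lower in HS on each of these 4 slides. They had been chosen for being lower over the same arrays, so their sign per slide is not an independent check. Among all measured members, chosen or not, 28, 28, 34 and 29 were below 0 on slides 1, 2, 3 and 4. For MRPL37 the within-slide log2 differences were -0.68, -0.17, -0.64 and -0.24, and for MRPS25 they were -0.50, -0.17, -0.57 and -0.18, so slides 1 and 3 showed larger decreases than slides 2 and 4. On the remaining slide, with 3 arrays, breed and temperature could not be separated. With slide as a block 9 members were lower, the 7 above with MRPL17 and MRPS2, and MRPL9 was higher. That fit called 8348 of all probes, against 6654 in the main fit.

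Genes with several probes gave a view that did not rest on the brightest probe, although it used the same arrays. Of 15 genes with several probes above the filter under any spelling, the probes had the same sign in 10 and both signs in 5. Of the 7 genes that passed the test, 3 had a second probe above the filter, and each of these second probes was below 0. The genes had been chosen for being lower over the same arrays, so this sign is not an independent check of samples or scaling. The second probe of MRPL47 was dim, well above background on 27 of 35 arrays, and did not pass (log2 difference -0.03, SE 0.06, limma adjusted p = 0.782).

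MRPL2 was lower by both of its probes, which share no run of 20 bases: the second probe averaged 10.92 ± 0.15 (SD, n = 18) in TN against 10.69 ± 0.17 (SD, n = 17) under heat, which is a log2 difference of -0.24 (SE 0.05, limma adjusted p = 0.00332). The pair is shown because separate stretches of one gene gave the same decrease.
MRPL2, brighter: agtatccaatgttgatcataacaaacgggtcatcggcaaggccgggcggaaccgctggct
MRPL2, dimmer: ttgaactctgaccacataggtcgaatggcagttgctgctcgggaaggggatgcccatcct

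MRPS11 was likewise lower by both probes. The dimmer probe fell further, with a log2 difference of -0.24 (SE 0.06, limma adjusted p = 0.00642). For MRPL21, a large-subunit protein, the brighter probe differed by -0.12 (SE 0.05, limma adjusted p = 0.139) and the dimmer probe by -0.27 (SE 0.07, limma adjusted p = 0.00901), so the gene passed by its dimmer probe but not by the brighter. In both genes the brighter probe holds AATAAA, the usual polyadenylation signal, marked in capitals in its last 30 bases, and the dimmer probe does not.
MRPS11, brighter: gaaAATAAAaatctctaccgtctgtaaaaa
MRPS11, dimmer: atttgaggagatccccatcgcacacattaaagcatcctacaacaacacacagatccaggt
MRPL21, brighter: tttcaagtaacAATAAAaccttttatcaaa
MRPL21, dimmer: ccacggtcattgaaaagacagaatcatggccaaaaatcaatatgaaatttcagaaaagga
On the printed strand, AATAAA was found in 10 of the 58 member probes (17.2%) and in 10.3% of all 60305 probes.

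Probes of 5 genes differed in sign and none of them passed the test. MRPL52 had a bright pair of overlapping probes at -0.10 (SE 0.05, limma adjusted p = 0.143 for the brighter) and a dim pair at 0.16, which differed from each other by the substitution A40T, counted from the 5′ end of the probe (limma adjusted p = 0.135 and 0.072). MRPS31 was at 0.19 (SE 0.09, limma adjusted p = 0.14) by the probe the rule selects and at -0.11 (SE 0.05, limma adjusted p = 0.109) by a brighter probe spelled mRpS31. MRPL14 was at 0.12 and -0.08, MRPL24 between -0.10 and 0.03, and MRPL18 between -0.05 and 0.08 over 6 probes. Of the last, 2 probes were identical in sequence and both gave 0.08, so they count as a technical repeat, as do the 2 identical probes of MRPS18C (-0.11 and -0.14). The stretches below are 30 bases of the disagreeing probes, and the capitals mark AATAAA in the bright MRPL52 probe and the base at which the dim MRPL52 probes differ.
MRPL52, bright, bases 31 to 60: aaccaagtcAATAAAaagcaactcctgtct
MRPL52, dim, bases 21 to 50: ccagggacccaagccttttAacagcccata
MRPL52, dim, spelled mrpl52: ccagggacccaagccttttTacagcccata
MRPS31, selected, bases 1 to 30: acatcatatcagatatgaaagttgccagat
MRPS31, spelled mRpS31: ctttccaaaaacccatatctgagtgttaaa
MRPL14, brighter, bases 1 to 30: ggatagctgaagtgcaagtccaatgcccat
MRPL14, dimmer: ttctgaatcgcactgaggctcccagtggtg

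**Figure D3:**
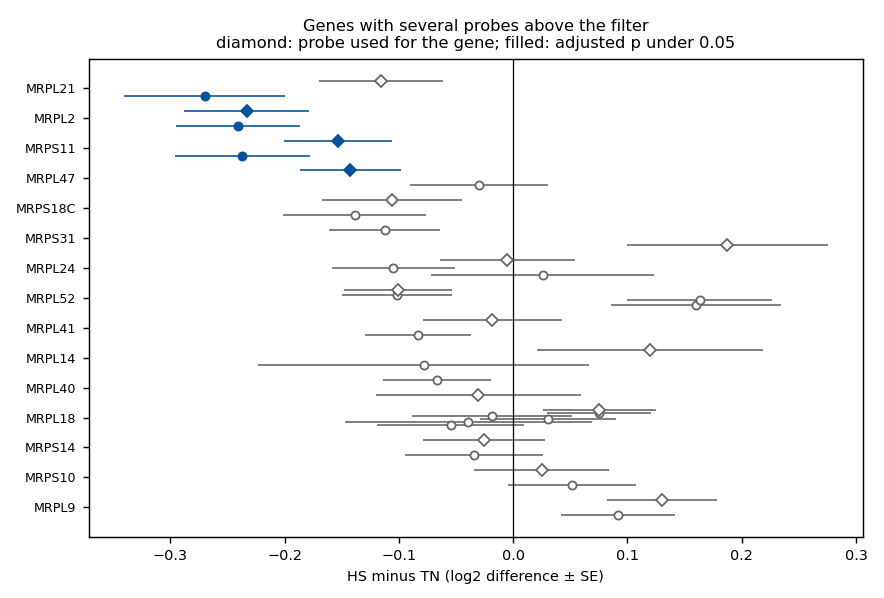
Log2 difference of HS minus TN (x axis, bars are SE) for each probe above the filter of the 15 genes with several such probes, with a diamond for the probe that represents the gene and filled symbols for probes that passed the test. The probes of MRPL2, MRPS11 and MRPL21 all lie below 0, while those of MRPL52, MRPS31, MRPL14, MRPL24 and MRPL18 lie on both sides.

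The array also names mitoribosomal genes in other letter case, and MRPL58 by its older name ICT1, which the member rule does not take. Counted under any spelling there were 59 genes, 56 of them above the filter, and 13 (23.2%) were lower in HS and 0 higher, with a median log2 difference of -0.10, beside 16.0% of all probes (8.3% lower) and 18.2% of named genes (9.9% lower). This count moved with the scaling. It was 19 with 75th percentile scaling, 9 with median scaling, where 1 gene was higher, and 1 with spike-in scaling, where 20 of 56 were below 0 and the median was 0.02. The spelling was widened after values had been seen. Of the 12 measured genes that appear only under another spelling, all were below 0 (9 with spike-in scaling) and 6 passed the test (8 with 75th percentile, 4 with median and 0 with spike-in scaling). They were MRPL38 (-0.34, SE 0.05), MRPS18A (-0.29, SE 0.06), MRPL28 (-0.26, SE 0.07), MRPS36 (-0.25, SE 0.08), MRPL46 (-0.24, SE 0.05) and MRPL15 (-0.18, SE 0.06). MRPL38 and MRPL46 are mitochondria-specific proteins of the large subunit, MRPL28 and MRPL15 have bacterial counterparts, and MRPS36 is now known as a part of a dehydrogenase complex of the TCA cycle and not of the ribosome. Under the spelling Mrps9, MRPS9 was measured at 9.76 ± 0.29 (SD, n = 18) in TN against 9.67 ± 0.29 (SD, n = 17) under heat, with a log2 difference of -0.08 (SE 0.10). MRPL40 had a probe spelled mrpl40 at 13.92 ± 0.13 (SD, n = 18) in TN, with a log2 difference of -0.07 (SE 0.05), so probes of this gene differed widely in level.

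The next question was whether breeds responded alike. MRPL37, MRPS25, MRPL48, MRPL2, MRPS11, MRPL47 and MRPL20 were below 0 within each breed. These genes had been chosen for being lower over the same pigs, so their sign per breed is not an independent check. In all, 19 of 43 members were below 0 in each breed, and 5 were above 0 in each breed (MRPL4, MRPL18, MRPL14, MRPL9 and MRPS31). The matching shares over all genes were not counted. Of the 5, MRPL18, MRPL14 and MRPS31 also had probes below 0 over all breeds, as given above. With 11 or 12 arrays per breed, MRPS25 in Creole pigs was the only gene that passed within a breed (log2 difference -0.41, SE 0.11, limma adjusted p = 0.0449), against 1.91% of all probes called there (0.874% lower and 1.03% higher). In F1 and Large White pigs 0 members passed, beside 0.00482% of all probes in each. At an unadjusted p under 0.05 the counts of the 43 were 6 in Creole, 6 in F1 and 8 in Large White, beside 21.5%, 8.3% and 16.6% of all probes. MRPL37 differed by -0.42 (SE 0.13) in Creole, -0.44 (SE 0.13) in F1 and -0.35 (SE 0.13) in Large White. The median over the 43 members was -0.03 in Creole, -0.02 in F1 and -0.11 in Large White, beside -0.04, -0.01 and -0.01 over all probes.

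A difference between the breeds in their response was not detected. The limma F-test of the breed by temperature interaction called 0 members and 0% of all probes. At an unadjusted p under 0.05 it held 1 member, MRPL24 (limma adjusted p = 0.963), beside 3.84% of all probes. MRPL24, a large-subunit protein with a bacterial counterpart, differed by 0.18 in Creole, -0.02 in F1 and -0.17 in Large White. The call of MRPS25 within Creole was lost when any of 14 arrays was left out.

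**Figure D4:**
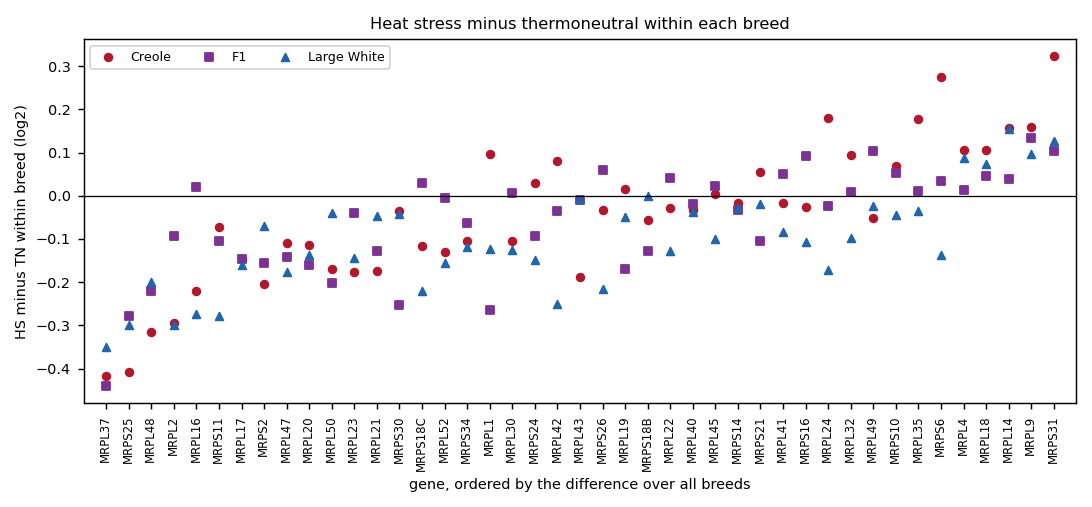
Log2 difference of HS minus TN (y axis) within Creole, F1 and Large White pigs for the 43 genes, ordered along the x axis by the difference over all breeds. MRPL37 is between -0.44 and -0.35 in the 3 breeds, whereas MRPL24 ranges from -0.17 to 0.18.

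Breeds were then compared over both temperatures. Of the 43 genes, 1 was higher in Creole than in Large White and 0 were lower, beside 3.64% of all probes called (1.73% higher and 1.92% lower). It was MRPL9, a large-subunit protein with a bacterial counterpart. Its log2 level ranged from 13.03 to 13.46 with a median of 13.19 on the 12 Creole arrays, from 12.87 to 13.35 with a median of 13.11 on the 11 F1 arrays and from 12.75 to 13.24 with a median of 12.94 on the 12 Large White arrays. The ranges overlapped, with F1 between the parents. Creole was higher by 0.26 (SE 0.06, limma adjusted p = 0.00822). By temperature, the mean was 13.14 ± 0.08 (SD, n = 6) in Creole TN, 13.30 ± 0.10 (SD, n = 6) in Creole HS, 12.92 ± 0.17 (SD, n = 6) in Large White TN and 13.01 ± 0.13 (SD, n = 6) in Large White HS. On TN arrays alone the difference was 0.23 and did not pass (limma adjusted p = 0.304). It did not pass with median or spike-in scaling either (0.20 and 0.17, limma adjusted p = 0.0698 and 0.543). A dimmer probe spelled mRpL9 gave 0.29 (SE 0.06, limma adjusted p = 0.00339) in the same direction, and its sequence is shown because it shares no run of 20 bases with the probe of the rule.
MRPL9, spelled mRpL9: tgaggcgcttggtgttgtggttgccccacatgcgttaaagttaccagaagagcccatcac

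MRPL21 differed between its probes in this comparison too. The dimmer probe, printed above, was lower in Creole than in Large White by 0.35, a log2 difference of -0.35 (SE 0.09, limma adjusted p = 0.0148), whereas the brighter probe stood at 0.16 (SE 0.07, limma adjusted p = 0.203).

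In the remaining contrasts 0 members passed. For F1 minus Large White, where 0.525% of all probes were called and an unadjusted p under 0.05 was held by 4 members and 10.5% of all probes, the smallest p-values were those of MRPS11 (-0.21, SE 0.06, limma adjusted p = 0.106) and MRPS26 (0.20, SE 0.09, limma adjusted p = 0.391). MRPS11 passed this contrast with median scaling (-0.30), spike-in scaling (-0.37) and array weights (-0.22). For F1 minus Creole, with 0.477% called and 5 members and 8.88% of all probes at an unadjusted p under 0.05, they were MRPS14 (-0.22, SE 0.07, limma adjusted p = 0.145) and MRPL21 (-0.16, SE 0.07, limma adjusted p = 0.395). For F1 against the midpoint of its parents, with 0.246% called and 3 members and 7.35% of all probes at an unadjusted p under 0.05, they were MRPS11 (-0.12, SE 0.05, limma adjusted p = 0.538) and MRPS14 (-0.14, SE 0.06, limma adjusted p = 0.574).

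Other genes of mitochondrial gene expression were set beside the mitoribosomal proteins for HS minus TN. Among 5 ribosomal proteins that carry other names, 0 passed and all were below 0 (2 with spike-in scaling), with ICT1, a release factor built into the ribosome and the same probe as MRPL58 above, at -0.12 (SE 0.05) and GADD45GIP1 at -0.26 (SE 0.15). Of 14 assembly factors 1 was lower, TRUB2, which modifies mitochondrial RNA (-0.22, SE 0.07), followed by MTG1, a GTPase (-0.12, SE 0.05, not called). Of 14 translation factors 1 was lower, TACO1, an activator of COX1 translation (-0.26, SE 0.07), followed by SLIRP, an RNA-binding protein (-0.19, SE 0.07, not called). Of 14 genes that load mitochondrial tRNAs 2 were lower, QRSL1, which makes glutamine tRNA (-0.34, SE 0.06), and VARS2, the valyl-tRNA synthetase (-0.24, SE 0.07). Of 8 genes of mitochondrial transcription and its regulators 3 were lower, among them TFAM, which packs mitochondrial DNA (-0.21, SE 0.04), and ESRRA, a nuclear receptor that drives mitochondrial genes (-0.25, SE 0.08). With spike-in scaling the only gene of these 5 lists that was lower was 1 of those that load tRNAs, and the medians of the assembly and tRNA-loading lists turned to 0.08 and 0.07.

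The products and the partners of the mitoribosome gave other counts, which moved with the scaling. Of the 13 subunits encoded in mitochondrial DNA, which the mitoribosome translates, 3 were lower, led by ND4L (-0.31, SE 0.06) and ATP8 (-0.30, SE 0.09), and the median was -0.10. With 75th percentile, median and spike-in scaling 10, 3 and 1 of them were lower. Of 73 nuclear subunits of the respiratory chain and ATP synthase, which assemble with them, 46 were lower and 1 higher, with a median of -0.21, among them ATP5A1 (-0.33, SE 0.06) and COX5B (-0.23, SE 0.04). Under those scalings 57, 49 and 19 were lower and 1 higher each time. Of 72 cytosolic ribosomal proteins 0 were lower and 40 higher, with a median of 0.14, among them RPL11 (0.23, SE 0.03) and RPL13A (0.38, SE 0.06). With 75th percentile scaling only 2 of them were higher and 1 lower (median 0.03), with median scaling 21 were higher and with spike-in scaling 19. The share of genes called was thus 16.3% for mitoribosomal proteins, 64.4% for nuclear respiratory chain subunits and 55.6% for cytosolic ribosomal proteins. These differences between lists were not tested.

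**Figure D5:**
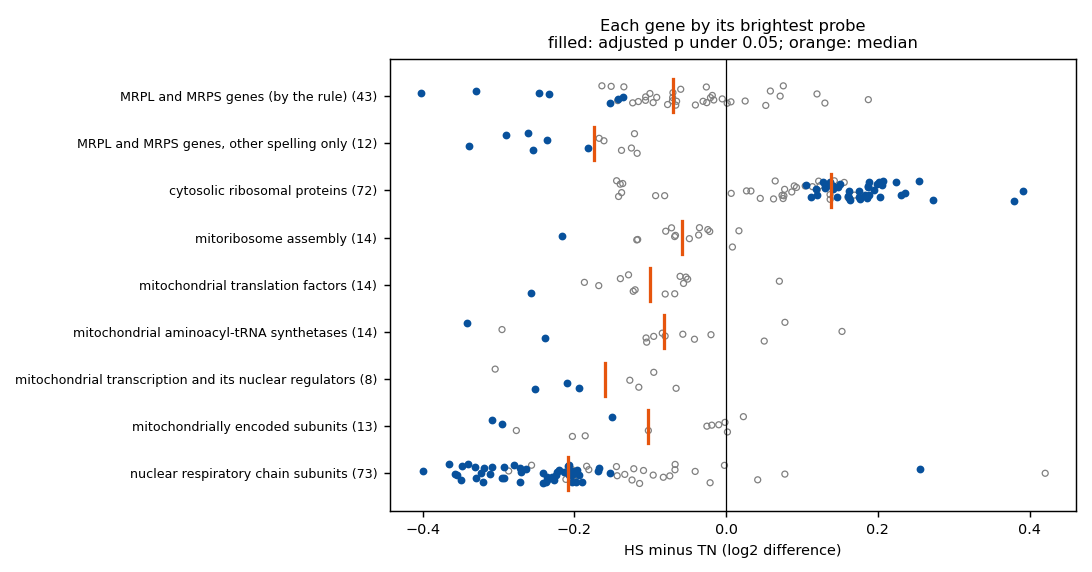
Log2 difference of HS minus TN (x axis) for each gene of the lists on mitochondrial gene expression and cytosolic ribosomes, by its brightest probe, with filled points for genes that passed the test and the list median in orange. The mitoribosomal median is -0.07, that of the nuclear respiratory chain subunits -0.21 and that of the cytosolic ribosomal proteins 0.14.

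Markers of other cell types also moved with temperature. Of 12 connective tissue markers 5 were higher (median 0.33, array means 11.2 to 12.8 in TN and 12.2 to 13.1 in HS), with SPARC at 0.32 (SE 0.07) and LUM at 0.39 (SE 0.10). Among the leukocyte markers the smallest p-values were those of LAPTM5 (1.26, SE 0.24) and LYZ (2.26, SE 0.51). Of 4 blood cell markers 2 were lower, HBB (-1.21, SE 0.22) and AHSP (-0.44, SE 0.15), with array means of 8.01 to 9.06 in TN and 7.49 to 8.72 in HS. Of 7 endothelial markers 1 was lower, VWF (-0.36, SE 0.08), followed by EGFL7 (-0.20, SE 0.07, not called). Of 13 muscle fibre markers 2 were lower and 1 higher, with DES at 0.24 (SE 0.05) and MYH2 at -0.21 (SE 0.06). With 75th percentile, median and spike-in scaling 10, 6 and 1 of them were lower, and 0, 0 and 1 higher. Under those scalings 4, 7 and 6 connective tissue markers were higher, and 3, 1 and 1 blood cell markers were lower. Endothelial markers had 2, 1 and 0 lower and 0, 1 and 1 higher. The 7 adipocyte and 6 nerve markers had 0 called, with FABP4 at 0.49 (SE 0.21), SCD at -0.30 (SE 0.22) and NEFL at 0.21 (SE 0.10). The mean of the 43 members per array was 11.2 to 11.4 in TN and 11.1 to 11.4 in HS. The part of these cell types in the mitoribosomal differences was not tested. The leukocyte covariate cannot test it, since the leukocyte mean itself moved with temperature.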

How the data were processed

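Total RNA of 35 muscle samples was labelled with Cy3 and hybridised to 1-colour Agilent porcine arrays. The authors quantified the spots with Agilent Feature Extraction 10.10.1.1, per the file headers, and deposited scanner files with the linear intensity of each spot. A second deposited table gives log2 values of 40649 probes that the authors had quantile-normalised and filtered for expression; it served as an alternative. Here the median pixel intensity was quantile-normalised with no background subtracted and put on the log2 scale. Spots flagged as outliers (105, of which 0 on the probes that represent members) were dropped. A probe entered the tests if it was well above background on 75% or more of the arrays in any group, which held for 41517 of 60305. No 2 arrays were identical (highest r 0.996). The number of arrays limits the precision.

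Fits used limma 3.58.1 in R 4.3.3 with Benjamini-Hochberg adjustment over all kept probes at 0.05. Temperature and breed were fitted additively over all 35 arrays, which is the fixed part of the study's model. Its random terms (pen, slaughter day, parents) could not be taken from the labels. Littermates, pen-mates and pigs slaughtered on the same day thus count as independent, and the SE and p-values leave out spread between pens and days. The study, whose model held these terms, reported fewer changed muscle probes than the 6654 called here for temperature. Temperature within breeds and the interaction used 1 mean per group. The fits were tested on simulated data. Alternatives were scaling, background correction, filter, slide, array weights, covariates, probe averaging, the deposited table, arrays left out and gene spelling. Members and gene lists were chosen with earlier results of these data known. Genes were named in full where called, at most 10 each way for temperature and 5 per breed contrast, and otherwise by the 2 smallest p-values of a contrast or list. The value of 1 marker gene is not reported here. Names came from the files, with accessions looked up in the Sscrofa11.1 gene table, whose coordinates were not used since the probes were not mapped.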

Additional observations from a re-analysis of the deposited data

Results flagged for a closer look

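Among the 7 genes that passed for temperature, MRPL9 and MRPL21, the highest and lowest array of each group were compared with the rest by Dixon's ratio of the gap to the range. MRPL20 was set apart by its lowest array in Large White TN, replicate 1 (log2 level 10.93, next 11.18, ratio 0.732). It was also set apart by its lowest array in Creole HS, replicate 6 (10.85, next 11.09, ratio 0.69). MRPL37 was set apart by its lowest array in Large White HS, replicate 5 (10.07, next 10.46, ratio 0.731). These are 3 of 54 combinations of group and gene, and chance sets apart about 1 in 20, or 2.7. Leaving out any of the 35 arrays kept both genes below 0 and past the threshold.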

How the results depend on the processing

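For HS minus TN, the 7 genes kept their call whichever of the 35 arrays was left out, and 7 to 9 members were then lower, 0 to 1 higher, with a median of -0.08 to -0.05. The higher member was MRPL9 or, for 1 array, MRPS31, when Large White HS replicate 2, F1 HS replicate 3 or 4, F1 TN replicate 2, 5 or 6 or Large White TN replicate 3 was left out. The main fit had 7 lower, with 6654 of all probes called. Against that, 3 were lower with the brightness covariate (2092 of all probes called) and 3 with the leukocyte covariate (2263). With spike-in scaling 1 was lower (4649), and 13 were under any spelling, which used the main fit. With spike-in scaling the median was 0.0541, and MRPL20 and MRPL47 reversed to 0.0102 and 0.011 (limma adjusted p = 0.958 and 0.949). Against 0 higher, 1 was higher with median scaling, with slide as a block and with array weights, MRPL9 each time. These fits called 6653, 8348 and 9158 of all probes. MRPL37 kept its call under all 14 alternatives (-0.42 to -0.25, adjusted p up to 0.0366) and MRPS25 under 13. Some of these could hardly change the calls. The spelling reused the main fit, probe averaging leaves genes with 1 probe as they are, and the deposited table held nearly the same values (lowest r 0.99998). For Creole minus Large White, 2 members were lower and 0 higher with median scaling, 1 lower and 0 higher with spike-in scaling, and 0 higher on TN arrays alone; without 1 array 0 to 1 were lower (Large White HS replicate 4, 5 or 6 left out) and 1 higher. For F1 minus Large White, 1 member was lower with median scaling, 2 with spike-in scaling and 1 with array weights. Within Creole, 0 were lower with median scaling, spike-in scaling, no filter, slide as a block, array weights and either covariate, and 3 under any spelling; without 1 array 0 to 2 were lower. Within F1, 1 was lower with array weights (MRPL37). Within Large White, 0 to 2 were lower without 1 array, 2 (MRPL2 and MRPS11) without Large White TN replicate 6. The interaction, F1 minus Creole and the midpoint contrast gave 0 members under every alternative run. The cause of these changes was not tested. The motif search in promoters was not run. No paired analysis was possible because replicate numbers follow the order of deposition and pair no animals.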
